A study of Mus musculus with 21 samples.

Results

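The genes of elastic fibres and microfibrils are described here across 21 mouse livers. The 10 genes are Eln, Fbn1, Fbn2, Mfap2, Mfap4, Mfap5, Fbln1, Fbln2, Fbln5 and Emilin1. They were chosen from the count table by symbol, as the Ensembl gene IDs that carry these names on the mouse genome build GRCm38, and make up 10 of its 52636 gene IDs. The livers came from wild-type mice, with no further allele or treatment named. The chow group holds 5 livers from mice fed normal chow for 8 weeks, labelled week 0. Another 8 were taken after 8 weeks and 8 after 16 weeks of CDA-HFD. This high-fat diet lacks choline and has defined amino acids, and mouse livers become fatty, inflamed and scarred on it. There were no chow livers of the age of the 16-week group, so time on the diet and age cannot be told apart there. Each library is labelled with a number of its own in its title, and nothing else says how the animals were kept, so the p-values measure the spread between these libraries.

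Elastic fibres give tissue its recoil. They consist of a core of cross-linked elastin and a sheath of microfibrils, which are strings of fibrillin molecules with further glycoproteins attached. Microfibrils also occur without elastin and hold latent TGF-beta in the matrix. In healthy liver the fibres lie mainly around vessels and in portal tracts, and in fibrotic liver elastin is known to gather in the scar.

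Levels are given in CPM, the counts scaled to a common library size with TMM factors. A gene was called higher or lower at an adjusted p under 0.05 from edgeR's quasi-likelihood test with Benjamini-Hochberg adjustment over 17104 genes, and every adjusted p of a gene below comes from that test. Library totals ran from 29037525 to 48901145 counts. The liver label was checked against 5 hepatocyte genes, all with counts, whose summed level ran from 71234 to 335610 CPM per library. Several libraries also held transcripts of other tissues. Skeletal muscle transcripts (8 genes) summed to 361 CPM in chow replicate 5, to 2362 and 311 CPM in 8-week replicates 3 and 6, and to 369, 343 and 210.3 CPM in 16-week replicates 1, 4 and 7. The other 15 libraries held 0.72 to 30.8 CPM. Squamous epithelium transcripts (10 genes) stood at 1994 and 299.6 CPM in the same 8-week libraries and at 269.8, 83.5 and 163 CPM in the same 16-week libraries, against at most 0.889 CPM on chow, where Krt13, Krt5, Krt6a, Sprr3 and Dsg3 had no counts. The remaining diet libraries held 2.65 to 22.7 CPM of them, so every diet library lay above chow. Exocrine pancreas transcripts reached 8112 and 384 CPM in 8-week replicates 4 and 5. The TMM factor of 8-week replicate 3 was 0.495.

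Most of the genes rose on the diet and rose again between 8 and 16 weeks. At 8 weeks against chow 9 of 10 were called higher and 0 lower, with Mfap5 not called, where 30.8% of all genes tested were called higher, 20.5% lower and 51.3% in either direction. At 16 weeks against chow the count was again 9 of 10 higher and 0 lower, against 29.4% of all genes higher, 22.5% lower and 51.9% in either direction. From 8 to 16 weeks 7 of 10 were called higher and 0 lower, against 10.6%, 11.0% and 21.6%. The median log2 change of the 10 genes was 1.58, 2.26 and 0.74 in these comparisons, beside 0.16, 0.03 and 0.00 for all genes tested. Both comparisons with chow use the same chow livers.

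Every library of one group lay above every library of the other for 5 genes at 8 weeks against chow (Eln, Fbn1, Mfap2, Fbln2 and Emilin1), where 15.3% of all genes lay wholly higher and 14.8% wholly lower. At 16 weeks against chow this held for the 9 genes other than Mfap5, against 27.2% and 23.3% of all genes. Between the diet groups it held for Eln and Fbn2, against 2.58% and 0.509%. All 10 genes passed the filter on low counts, but Fbn2 and Mfap2 passed through the diet groups. The filter uses counts per library total without TMM factors, and on that scale Fbn2 reached its 0.241 CPM in 0 chow libraries and Mfap2 in 1. Mfap5 reached it in 2 chow, 3 8-week and 5 16-week libraries.

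**Figure D1:**
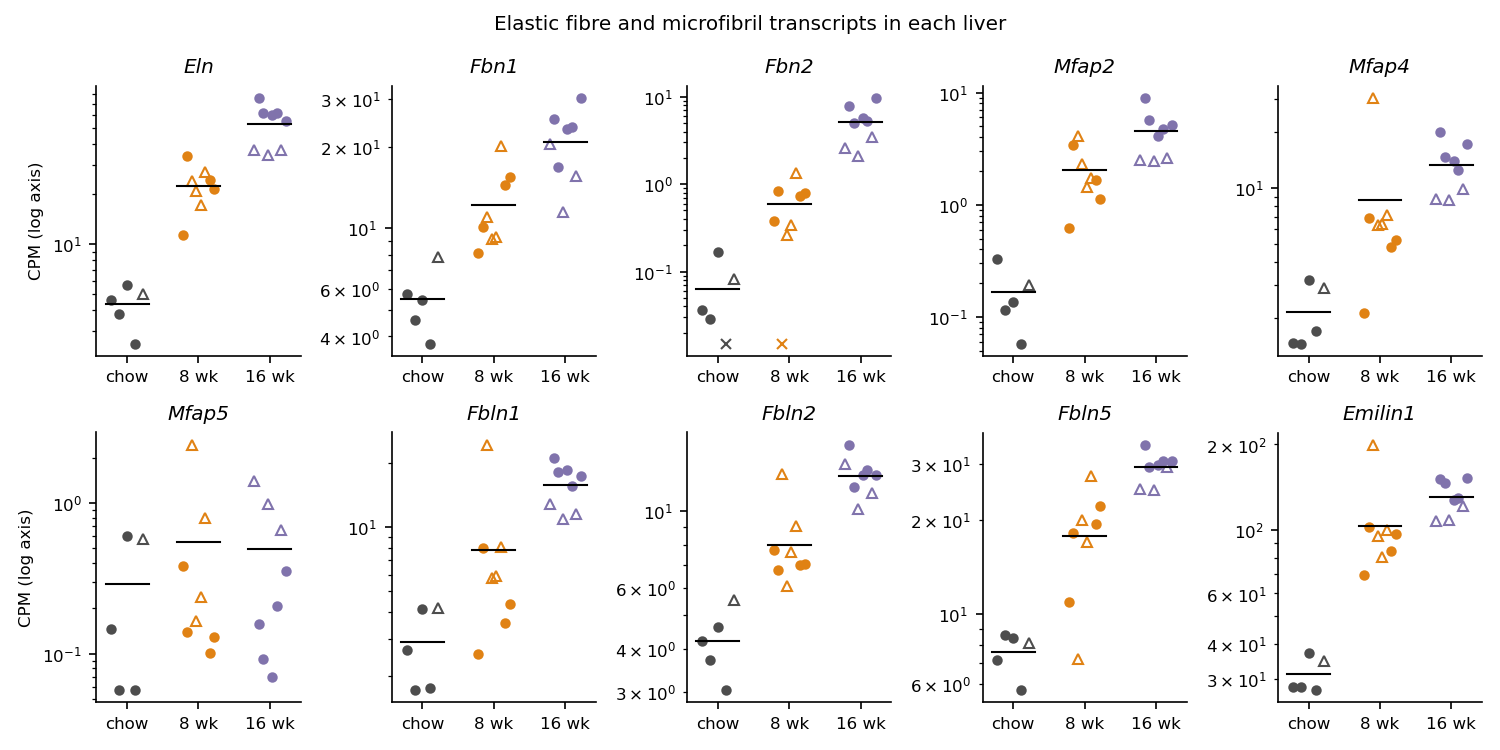
Level of each gene in each liver, in CPM on a log axis, for chow (grey), 8 weeks (orange) and 16 weeks (purple) of CDA-HFD. Lines mark group means, crosses mark libraries with 0 counts, and open triangles mark the 8 libraries with transcripts of other tissues; the 3 open triangles at 16 weeks are the lowest Eln values of that group.

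Tropoelastin, the soluble monomer that is cross-linked into the elastin of the fibre core, was encoded by a transcript that rose at each step. Eln (ENSMUSG00000029675, chr5:134702593-134747323, minus strand) stood at 4.59, 3.81, 5.70, 2.52 and 5.04 CPM in chow replicates 1 to 5. Its level at 8 weeks ran from 11.3 through a median of 22.6 to 33.8 CPM, and at 16 weeks from 34.6 through 57.7 to 75.4 CPM. The 3 groups did not overlap. The group means were 4.33 ± 1.22 (SD, n = 5), 22.5 ± 6.67 (n = 8) and 52.8 ± 14.99 CPM (n = 8). Against chow, the log2 change was 2.38 ± 0.27 (SE) at 8 weeks (adjusted p = 5.00e-07) and 3.61 ± 0.28 at 16 weeks (adjusted p = 2.63e-09). Between the diet groups it was 1.23 ± 0.21 (adjusted p = 0.00056).

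Within the 16-week group the Eln libraries stood in 2 sets. Replicates 1, 4 and 7 held 36.7, 34.6 and 36.9 CPM, and the other 5 held 55.3 to 75.4 CPM. Those 3 libraries are the ones with muscle and squamous transcripts. They also had the 3 lowest sums of 9 activated stellate cell and myofibroblast genes in that group (1326, 1199 and 1268 CPM, against 1490 to 2047 CPM) and the 3 highest sums of hepatocyte genes (102160, 94003 and 93465 CPM, against 71234 to 87656 CPM). The part of these differences in the Eln values was not tested.

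The fibrillins, which polymerise into the microfibril itself, rose together but from very different levels. Fbn1 (ENSMUSG00000027204, chr2:125300594-125507993, minus strand) encodes the main fibrillin of adult tissue. It stood at 5.73, 4.59, 5.46, 3.76 and 7.86 CPM in the chow livers. At 8 weeks it ran from 8.10 through a median of 10.6 to 20.1 CPM, and at 16 weeks from 11.5 through 21.8 to 30.2 CPM. The chow libraries all lay below the diet libraries, while the 8- and 16-week ranges overlapped over much of their length. Fbn1 changed by a log2 value of 1.16 ± 0.25 at 8 weeks (adjusted p = 0.00079), 1.93 ± 0.26 at 16 weeks (adjusted p = 2.55e-06) and 0.77 ± 0.21 between them (adjusted p = 0.0146). The last call was lost when 8-week replicates 3, 4 and 5 were left out (log2 change 0.62, adjusted p = 0.0825).

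Fbn2 (ENSMUSG00000024598) encodes the fibrillin that is made mostly in embryonic and growing tissue. It was nearly absent on chow, with 10 counts over the 5 libraries (1, 1, 5, 0 and 3 counts, or 0.037, 0.029, 0.169, 0 and 0.082 CPM). Its 184 counts at 8 weeks gave 0 to 1.34 CPM with a median of 0.56 CPM, and its 2320 counts at 16 weeks gave 2.10 through 5.10 to 9.60 CPM. The 16-week libraries all lay above the others. At 8 weeks only replicate 3, with 0 counts, fell within the chow range, and 3 counts in that library would be 0.2085 CPM, while the next lowest 8-week library held 0.263 CPM. Its log2 change was 3.24 ± 0.71 at 8 weeks (adjusted p = 0.000915), 6.32 ± 0.73 at 16 weeks (adjusted p = 3.39e-07) and 3.09 ± 0.46 from 8 to 16 weeks (adjusted p = 0.000148).

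The balance of the fibrillins was compared through the log2 ratio of their counts in each library, with 0.5 counts added to each. Mean log2 Fbn2/Fbn1 was -6.54 ± 1.12 (SD, n = 5) on chow, -4.80 ± 1.49 at 8 weeks and -2.11 ± 0.44 at 16 weeks (n = 8 each). The difference of 2.70 between 16 and 8 weeks had an adjusted p of 0.00233 by an exact two-sided permutation test over libraries, adjusted over 15 ratio comparisons. At 16 weeks against chow it was 4.44 (adjusted p = 0.00333 by the exact permutation test), where the test can give no raw p under 0.00155. At 8 weeks against chow it was 1.74 (adjusted p = 0.061 by the exact permutation test), and 2.24 without 8-week replicate 3 (adjusted p = 0.00758) and 2.16 without chow replicate 3 (adjusted p = 0.0424).

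Among the small glycoproteins that sit on the microfibril, Mfap2 showed the widest rise and its close relative Mfap5 none that was called. Mfap2 (ENSMUSG00000060572, chr4:141010418-141015984, plus strand) encodes a short protein that binds fibrillin, tropoelastin and active TGF-beta family ligands. It had 26 counts over the chow libraries, at 0.331, 0.115, 0.135, 0.058 and 0.192 CPM. At 8 weeks it ran from 0.619 through a median of 1.70 to 4.10 CPM, and at 16 weeks from 2.46 through 4.45 to 8.90 CPM. Every diet library was above every chow library, and the diet groups overlapped. Mfap2 had a log2 change of 3.61 ± 0.52 at 8 weeks (adjusted p = 1.00e-05), 4.78 ± 0.53 at 16 weeks (adjusted p = 2.20e-07) and 1.17 ± 0.35 between them (adjusted p = 0.0235). Without 16-week replicate 2, the library with the highest value, the last change was 0.95 (adjusted p = 0.059).

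Mfap5 (ENSMUSG00000030116, chr6:122505845-122529290, plus strand) encodes the related protein that binds fibrillins and Notch ligands and is a known product of adventitial fibroblasts. It stood at 0.147, 0.057, 0.607, 0.058 and 0.575 CPM on chow, at 0.102 through a median of 0.201 to 2.43 CPM at 8 weeks and at 0.07 through 0.28 to 1.40 CPM at 16 weeks. The groups overlapped throughout. Its log2 change was 0.77 in both comparisons with chow (adjusted p = 0.476 and 0.485 by edgeR) and 0.00 between the diet groups (adjusted p = 0.9996 by edgeR). Without 8-week replicate 3 the change at 8 weeks was -0.06 (adjusted p = 0.951).

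The high Mfap5 libraries were largely those with muscle transcripts. The 3 highest of the 16-week group were replicates 1, 4 and 7, at 1.40, 0.985 and 0.663 CPM, with the other 5 at or below 0.354 CPM. The highest at 8 weeks were replicates 3 and 6, at 2.43 and 0.792 CPM. On chow, replicate 5 with 361 CPM of muscle transcripts held 0.575 CPM, but replicate 3 with 1.82 CPM of them held 0.607 CPM. The part of muscle, squamous or other tissue in these values was not tested.

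**Figure D2:**
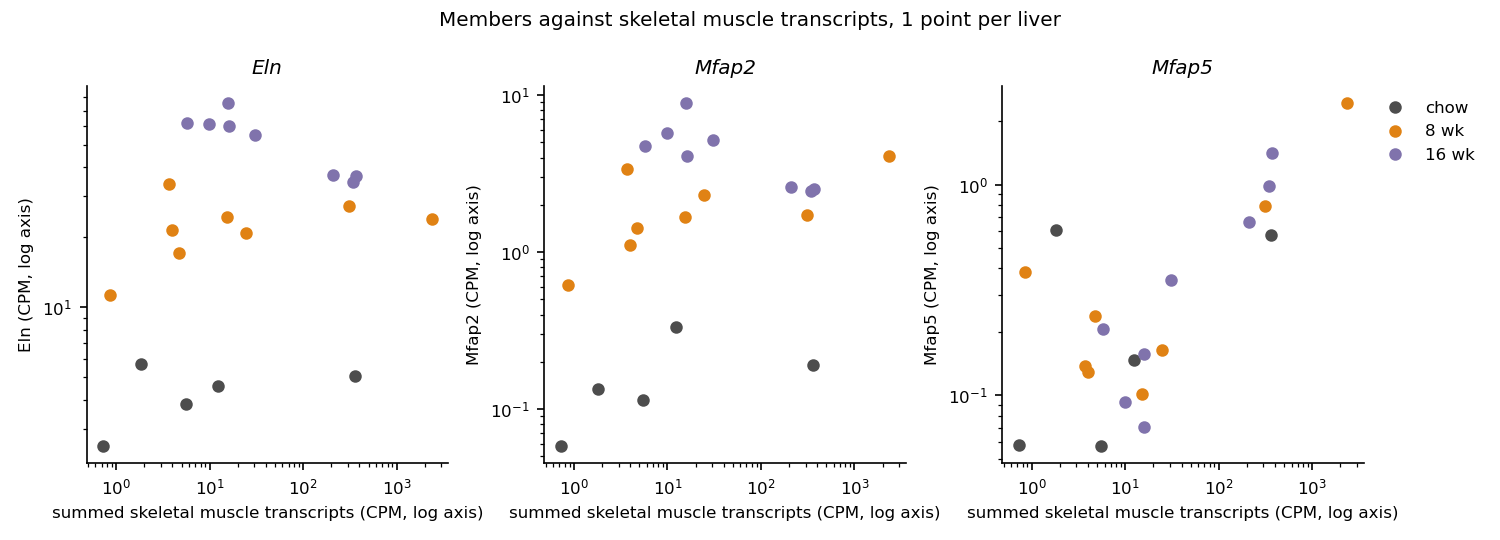
Eln, Mfap2 and Mfap5 (CPM, log axis) against the summed level of 8 skeletal muscle genes (CPM, log axis), with 1 point per liver for chow (grey), 8 weeks (orange) and 16 weeks (purple). The 3 libraries of 16 weeks with 210.3 to 369 CPM of muscle transcripts are the lowest of their group in Eln and the highest in Mfap5.

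The ratio of the pair moved with the diet. Mean log2 Mfap5/Mfap2 was 0.33 ± 1.40 (SD, n = 5) on chow, -2.51 ± 1.503 at 8 weeks and -3.70 ± 2.07 at 16 weeks (n = 8 each). The difference from chow was -2.84 at 8 weeks (adjusted p = 0.0186 by the exact permutation test) and -4.03 at 16 weeks (adjusted p = 0.00874). In neither comparison were the groups apart. The ratios of -0.67 and -0.745 in 8-week replicates 1 and 3 and of -0.83 in 16-week replicate 1 lay above the lowest chow ratio of -1.08.

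Mfap4 (ENSMUSG00000042436, chr11:61485431-61488900, plus strand) encodes a fibrinogen-domain glycoprotein that binds tropoelastin and fibrillin and is studied as a serum marker of liver fibrosis. It stood at 1.47, 1.46, 3.20, 1.71 and 2.90 CPM on chow. At 8 weeks it ran from 2.12 through a median of 6.37 to 30.3 CPM, and at 16 weeks from 8.65 through 13.3 to 19.98 CPM. At 8 weeks replicate 1 lay within the chow range and replicate 3 above all 16-week libraries, while the other 6 stood between 4.82 and 7.18 CPM. Mfap4 had a log2 change of 1.99 ± 0.48 at 8 weeks (adjusted p = 0.00183) and 2.62 ± 0.49 at 16 weeks (adjusted p = 0.000126). Between the diet groups it was 0.63 ± 0.38 and not called (adjusted p = 0.238). That outcome rested on 8-week replicate 3: without it the change from 8 to 16 weeks was 1.25 (adjusted p = 0.00109), and the change at 8 weeks was 1.36 (adjusted p = 0.000574).

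The fibulins, which bind tropoelastin and microfibrils and help lay down the fibre, were called higher in each comparison. Fbln5 (ENSMUSG00000021186, chr12:101746565-101819055, minus strand) is required for elastic fibre assembly and tethers tropoelastin and the lysyl oxidase Loxl1 to cells and microfibrils. It stood at 7.13, 8.60, 8.43, 5.73 and 8.08 CPM on chow, at 7.23 through a median of 18.8 to 27.5 CPM at 8 weeks and at 24.8 through 29.7 to 34.6 CPM at 16 weeks. Only 8-week replicate 3, the lowest of its group, lay within the chow range, and only 8-week replicate 6 within the 16-week range. The log2 change was 1.23 ± 0.22 at 8 weeks (adjusted p = 0.000145), 1.95 ± 0.23 at 16 weeks (adjusted p = 4.80e-07) and 0.72 ± 0.19 between them (adjusted p = 0.0111).

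Fbln1 (ENSMUSG00000006369, chr15:85205949-85286535, plus strand) encodes a fibulin found in elastic fibres, basement membranes and blood. It stood at 2.65, 1.72, 4.15, 1.77 and 4.16 CPM on chow, at 2.53 through a median of 5.85 to 24.4 CPM at 8 weeks and at 11.0 through 16.5 to 21.1 CPM at 16 weeks. At 8 weeks replicates 1 and 7 lay within the chow range, and replicate 3 above every 16-week library. Fbln1 had a log2 change of 1.42 ± 0.43 at 8 weeks (adjusted p = 0.00933), 2.45 ± 0.44 at 16 weeks (adjusted p = 9.25e-05) and 1.03 ± 0.35 between them (adjusted p = 0.0418). Without 8-week replicate 3 the first of these was 0.91 (adjusted p = 0.0113) and the last 1.54 (adjusted p = 0.000198). The call from 8 to 16 weeks was lost in 15 of 26 alternatives, among them 12 in which a single library was left out.

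Fbln2 (ENSMUSG00000064080, chr6:91212455-91272540, plus strand) encodes a fibulin of vessel walls and of the basement membrane zone. It ran from 3.04 to 5.53 CPM on chow, from 6.08 to 12.8 CPM at 8 weeks and from 10.1 to 15.6 CPM at 16 weeks, and only 8-week replicate 3 reached into the 16-week range. The log2 change was 0.92 ± 0.17 at 8 weeks (adjusted p = 0.000198), 1.58 ± 0.18 at 16 weeks (adjusted p = 2.20e-07) and 0.66 ± 0.14 between them (adjusted p = 0.00363). Mean log2 Fbln2/Fbln1 was 0.62 ± 0.36 (SD, n = 5) on chow, 0.34 ± 0.77 at 8 weeks and -0.29 ± 0.26 at 16 weeks (n = 8 each). Every 16-week ratio lay below every chow ratio, a difference of -0.92 (adjusted p = 0.00333 by the exact permutation test). At 8 weeks against chow the difference of -0.29 did not pass (adjusted p = 0.462 by the exact permutation test).

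Emilin1 (ENSMUSG00000029163, chr5:30913402-30921277, plus strand) encodes the glycoprotein at the boundary of elastin and microfibrils, which also holds back the processing of pro-TGF-beta. It was the most abundant of these transcripts, at 28.3, 28.2, 37.2, 27.5 and 34.9 CPM on chow. At 8 weeks it ran from 69.7 through a median of 96.1 to 199.5 CPM, and at 16 weeks from 108 through 129 to 153 CPM. All diet libraries lay above the chow libraries, and of the 8-week libraries only replicate 3 rose above the lowest 16-week one. The log2 change was 1.73 ± 0.20 at 8 weeks (adjusted p = 9.35e-07) and 2.07 ± 0.21 at 16 weeks (adjusted p = 5.62e-08). From 8 to 16 weeks it was 0.33 ± 0.17 and not called (adjusted p = 0.15), and without 8-week replicate 3 it was 0.55 (adjusted p = 0.00091). The values of that library depend on its TMM factor. By total counts alone it held 98.9 CPM of Emilin1, below replicates 2 and 6 of its group. On that scale it held 15.02 CPM of Mfap4 and 12.1 CPM of Fbln1, still the highest of the group for both.

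**Figure D3:**
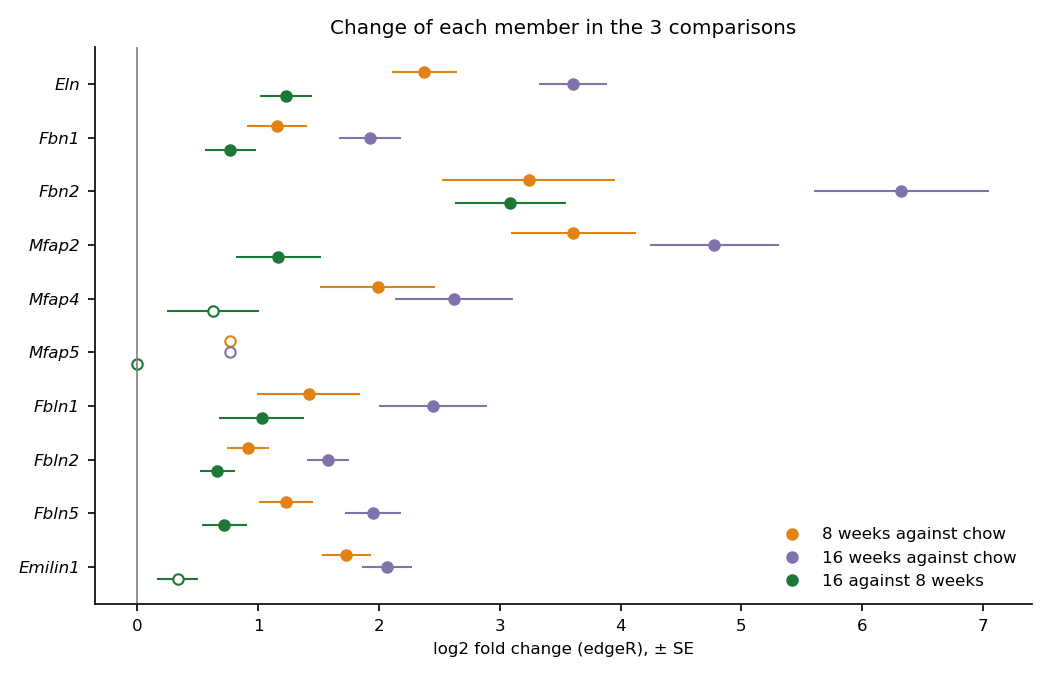
Log2 fold change of each gene by edgeR with its SE, for 8 weeks (orange) and 16 weeks (purple) of diet against chow and for 16 against 8 weeks (green). Filled points were called at an adjusted p under 0.05; 9, 9 and 7 genes were called and Mfap5, drawn without an error bar, in no comparison.

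To compare levels between genes, CPM was divided by the length of the merged exons in kilobases. The summed level of the 10 genes had a median of 10.15 CPM per kb on chow, 32.8 at 8 weeks and 56.9 at 16 weeks. Emilin1 made up 57.5% ± 3.56 (SD, n = 5) of this sum on chow, 57.8% ± 4.01 at 8 weeks and 48.0% ± 3.53 at 16 weeks (n = 8 each). Mfap4 came next in each group by its mean level per kb, and its mean shares were 9.85%, 10.6% and 12.1%. By mean share, Fbln5 stood slightly above it on chow, at 10.07%. The share of Eln was 4.78% ± 0.78 on chow, 7.97% ± 2.14 at 8 weeks and 11.6% ± 1.49 at 16 weeks. Its place by mean level per kb went from the sixth on chow to the third at both diet times. Eln lay above Fbln5, the next in order, in only 3 of 8 libraries at 8 weeks and in 8 of 8 at 16 weeks.

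After Emilin1 and Mfap4, the order of mean levels per kb on chow was Fbln5, Fbln2, Fbln1, Eln, Fbn1, Mfap2, Mfap5 and Fbn2. Of the neighbours in that order, Emilin1 and Mfap4, Fbn1 and Mfap2, and Mfap5 and Fbn2 had ranges that did not overlap, and all others overlapped. At 16 weeks the order after Mfap4 was Eln, Fbln5, Mfap2, Fbln1, Fbln2, Fbn1, Fbn2 and Mfap5. There, Emilin1 and Mfap4, Fbln1 and Fbln2, and Fbn1 and Fbn2 had ranges apart. At 8 weeks all neighbours overlapped. Mfap2 and Mfap5 thus stood next to each other on chow, at 0.137 and 0.080 CPM per kb, and apart at 16 weeks, at 3.74 and 0.137 CPM per kb.

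**Figure D4:**
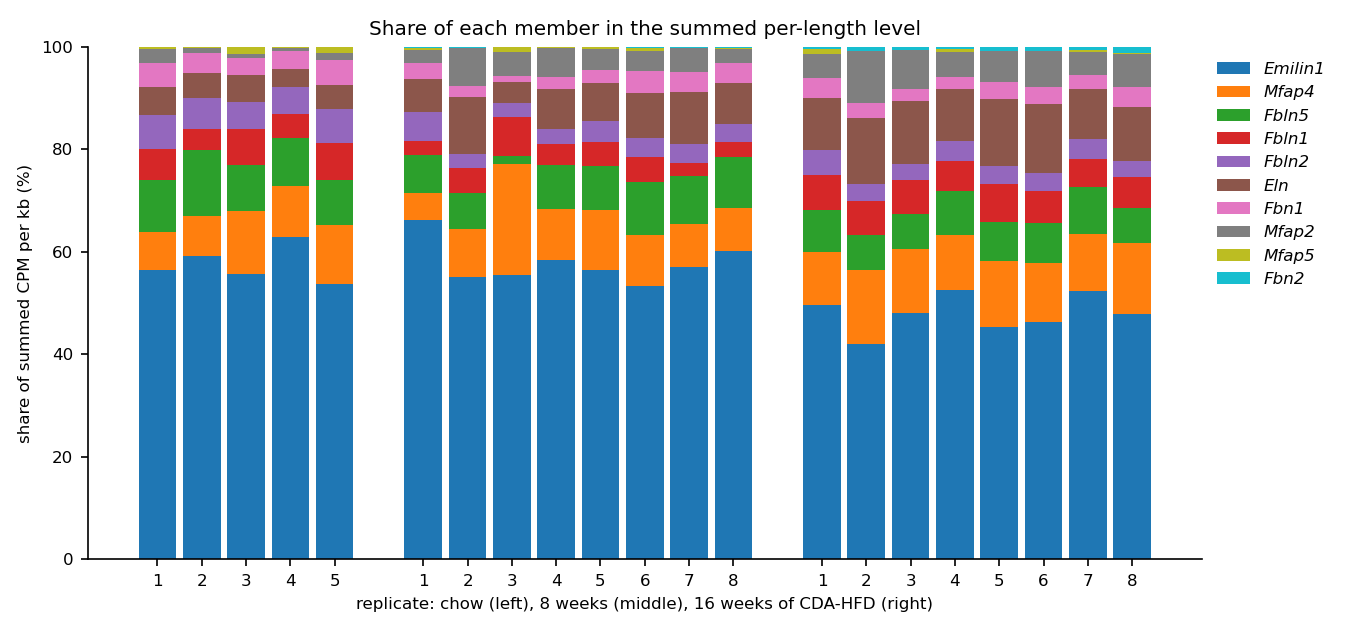
Share of each gene in the summed CPM per kb of exon, in percent, for each liver: 5 chow (left), 8 at 8 weeks (middle) and 8 at 16 weeks (right). Emilin1 (bottom, blue) makes up 42.1 to 66.3% in the diet libraries, and the Eln band (brown) runs from 3.51% in a chow liver to 13.4% at 16 weeks.

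Elastin was also set against Fbn1 and against Col1a1, a chain of the main scar collagen. Mean log2 Eln/Fbn1 went from -0.35 ± 0.28 (SD, n = 5) on chow to 0.88 ± 0.45 at 8 weeks and 1.34 ± 0.35 at 16 weeks (n = 8 each). The differences of 1.23 and 1.69 from chow each had an adjusted p of 0.00333 by the exact permutation test, with all diet libraries above all chow libraries, and the difference of 0.46 between the diet groups did not pass (adjusted p = 0.0548). Mean log2 Eln/Col1a1 moved the other way at first, from -1.49 ± 0.30 on chow to -3.05 ± 0.38 at 8 weeks, and then stood at -2.12 ± 0.31 at 16 weeks. The fall of 1.56 at 8 weeks left no overlap with chow (adjusted p = 0.00333 by the exact permutation test), and the ratio then rose by 0.92 between 8 and 16 weeks (adjusted p = 0.00233). At 16 weeks it differed from chow by -0.63 (adjusted p = 0.0104 by the exact permutation test). So from chow to 8 weeks Eln gained less than Col1a1 by this ratio, and from 8 to 16 weeks it gained more.

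Whether these genes vary together from liver to liver was examined within the 8-week group, over 8 libraries and 45 pairs. By Pearson's r 7 pairs passed after adjustment over 90 pairs in both diet groups, 3 without replicate 3 and 4 without replicate 5 or replicate 8. Mfap4 and Fbln1 had r = 0.97 (exact permutation p = 2.48e-05, adjusted p = 0.00223) and Spearman's rho = 1 (exact permutation p = 4.96e-05, adjusted p = 0.00446), and r = 0.98 without the 2 libraries farthest from the median of Mfap4. This was the only pair that passed by rho. The other 6 had r between 0.84 and 0.95. Their rho over all 8 libraries was between 0.64 and 0.81. Without the 2 libraries farthest from the median of the pair's first gene, which differ from pair to pair, their r was between 0.36 and 0.57. Leaving out extreme libraries also narrows the range, so this fall cannot tell whether each relation rests on those 2 libraries. At 16 weeks 24 pairs passed by r and 0 by rho, with 4 by r without replicate 2. By total counts 27 passed by r and 25 by rho. The libraries there stood in 2 sets for most of these genes, of 3 and 5. These tests therefore cannot tell relations between the members from the gap between the 2 sets.

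By the mean of Spearman's rho of log2 CPM over the 8 libraries at 8 weeks and the 8 at 16 weeks, the genes most like Fbn1 among 14544 were Pdgfrb (0.976), Slc43a2 (0.929), Col6a3 (0.917), Prrx1 (0.917) and Col1a2 (0.905). Pdgfrb encodes the PDGF receptor of stellate cells and pericytes, and Col6a3 and Col1a2 encode collagen chains. The genes most like Eln were Jam3 (0.917), Fgf13 (0.905), Wdr86 (0.893), Anxa9 (0.881) and Ap1m2 (0.881). This ranking is a description with no test, and the set of 3 and the set of 5 libraries at 16 weeks enter its rho values. The libraries share their scaling: when CPM was scaled by total counts instead, 0 of the 5 remained in either list.

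Promoter sequences are shown for 3 members that were called higher in all comparisons, as the 250 bases before the transcription start in RefSeq on GRCm38.p6. RefSeq entries matched 6 of the 10 genes, Fbln1, Fbln2, Fbln5, Fbn1, Emilin1 and Mfap2. The windows were searched on both strands for CAGAC (the SMAD element), TGANTCA (the AP-1 site), CATTCC (a TEAD site), TATAAA (the TATA box), GGGCGG (the GC box) and CCAAT (the CCAAT box). Matches are in capitals, printed as they stand on the gene's strand, so that a match on the other strand appears as its reverse complement. The windows of Fbln1 (chr15:85205699-85205948, plus strand), Fbln5 (chr12:101819120-101819369, minus strand) and Mfap2 (chr4:141010174-141010423, plus strand) are printed, since their RefSeq starts lie within 0, 64 and 6 bases of the annotated gene start.
Fbln1: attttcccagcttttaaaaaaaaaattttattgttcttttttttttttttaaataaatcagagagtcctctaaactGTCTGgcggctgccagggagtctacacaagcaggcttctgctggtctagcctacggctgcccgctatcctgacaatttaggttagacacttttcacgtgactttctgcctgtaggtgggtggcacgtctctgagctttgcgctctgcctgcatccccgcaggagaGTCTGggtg
Fbln5: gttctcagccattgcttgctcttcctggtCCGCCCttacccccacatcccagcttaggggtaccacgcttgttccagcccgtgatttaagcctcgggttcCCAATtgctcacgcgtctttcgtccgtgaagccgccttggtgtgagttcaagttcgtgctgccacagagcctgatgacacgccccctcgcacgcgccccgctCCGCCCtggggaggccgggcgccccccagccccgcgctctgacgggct
Mfap2: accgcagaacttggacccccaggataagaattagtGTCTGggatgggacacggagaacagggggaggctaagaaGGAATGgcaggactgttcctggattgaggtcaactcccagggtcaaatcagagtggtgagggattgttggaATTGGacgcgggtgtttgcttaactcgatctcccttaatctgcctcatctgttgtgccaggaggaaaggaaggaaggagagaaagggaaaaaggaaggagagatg
Fbln1 holds 2 matches to CAGAC, 174 and 9 bases before the start. Fbln5 holds 2 matches to GGGCGG, at 221 and 48 bases, and CCAAT at 150 bases. Mfap2 holds CAGAC at 215, CATTCC at 176 and CCAAT at 105 bases. Of the other windows, Emilin1 has 2 matches to CAGAC, and Fbn1 and Fbln2 have 1 to GGGCGG each. Among 32851 mouse promoter windows of this length, CAGAC occurs in 42.2%, TGANTCA in 6.7%, CATTCC in 12.6%, TATAAA in 12.4%, GGGCGG in 32.7% and CCAAT in 33.8%. None of the 6 windows holds TGANTCA or TATAAA, and no motif was found in all of them. A match is a run of letters and shows no binding.

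The enzymes that cross-link elastin and collagen rose with these genes, apart from 1. Of 5 lysyl oxidases 4 were called higher and 1 lower in both comparisons with chow. Beside this list and those below, 30.8% of all genes tested were called higher at 8 weeks, 29.4% at 16 weeks and 10.6% between the diet groups. The shares called lower were 20.5%, 22.5% and 11.0%. Lox, the founding member, went from 0.668 ± 0.20 CPM on chow to 5.77 ± 2.27 at 8 weeks and 9.73 ± 1.64 at 16 weeks (log2 change 3.11 and 3.86, adjusted p = 4.40e-08 and 2.02e-09 by edgeR). Loxl1, the member that acts on elastin at sites marked by Fbln5, went from 2.53 to 14.2 and 26.7 CPM (log2 change 2.48 and 3.39, adjusted p = 2.86e-06 and 4.44e-08 by edgeR). Loxl4 fell from 13.6 to 6.86 and 5.44 CPM.

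Partners that bind fibrillin microfibrils were mostly called higher by 16 weeks. Of 12 latent TGF-beta binding proteins, ADAMTS and ADAMTS-like genes tested, 7 were called higher at 8 weeks, 11 at 16 weeks and 9 between the diet groups, with 0 lower. The list's median log2 change was 1.09, 1.88 and 0.94. Ltbp2, which binds fibrillin and Fbln5, rose from 2.06 to 15.3 and 35.7 CPM (log2 change 2.88 and 4.11 against chow). Adamtsl2, which binds fibrillin and latent TGF-beta binding proteins, stood at 11.8, 42.9 and 97.4 CPM, and its log2 change at 16 weeks against chow was 3.05 (adjusted p = 2.35e-09 by edgeR). Thsd4, which promotes microfibril assembly, was not called at 8 weeks (1.54 on chow and 1.19 CPM) and stood at 5.20 CPM at 16 weeks, a log2 change of 2.10 from 8 weeks (adjusted p = 1.71e-05 by edgeR). Adamtsl3, of the same family, had a log2 change of 1.29 from 8 to 16 weeks, and Ltbp3 of 2.01 at 8 weeks against chow.

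Other fibulins and EMILIN relatives moved in both directions. Of 7 tested, 4 were called higher and 2 lower at 8 weeks, 4 and 1 at 16 weeks, and 2 and 0 from 8 to 16 weeks. Efemp2, the fibulin that brings Lox to tropoelastin, went from 4.57 to 24.4 ± 17.0 (SD, n = 8) and 28.2 CPM (log2 change 2.41 and 2.63 against chow). Emilin2 had a log2 change of 1.83 at 8 weeks and Fbln7 of 2.14 at 16 weeks, both against chow. The genes called lower were Hmcn1 (log2 change -0.96) and Mmrn1 (-1.08) at 8 weeks and Mmrn2 (-0.41) at 16 weeks. Mmrn1, a multimerin of platelets and endothelium, and Efemp1 rose from 8 to 16 weeks by log2 changes of 1.70 and 0.85.

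Among proteoglycan partners and fibronectin, 3 of 5 were called higher and 1 lower in both comparisons with chow. Vcan, the versican gene, had log2 changes of 2.24 and 2.83, and Bgn, the biglycan gene, of 1.71 and 2.17. The 8-week level of Bgn varied widely, at 522 ± 337 CPM (SD, n = 8). Dcn, the decorin gene, was the only one called from 8 to 16 weeks, at a log2 change of 0.66. Fn1, whose product fibrillin assembly needs and which hepatocytes secrete in bulk, fell from 1867 to 1039 and 859 CPM.

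Genes for proteases that can cut elastin rose as well. Of 10 tested, 8 were called higher at 8 weeks, 7 at 16 weeks and 6 from 8 to 16 weeks, and 1 was called lower, from 8 to 16 weeks. Mmp12, the macrophage elastase, went from 0.359 CPM on chow to 291 and 489 CPM (log2 change 9.65 and 10.39, adjusted p = 1.62e-11 and 3.04e-12 by edgeR). Mmp7, the matrilysin of epithelia, went from 0.082 to 1.61 ± 2.11 and 22.8 CPM, with log2 changes of 4.18 and 8.09 against chow, and its 8-week mean was 0.997 CPM without replicate 3. Prtn3, a neutrophil elastase relative, fell by 1.88 on the log2 scale from 8 to 16 weeks. Of 6 protease inhibitors tested, 4 were called higher at 8 weeks, 5 at 16 weeks and 1, Timp3 (log2 change 1.37), from 8 to 16 weeks. Timp1 had a mean of 0.211 CPM on chow, 30.5 ± 44.4 CPM (SD, n = 8) at 8 weeks and 15.9 CPM at 16 weeks. At 8 weeks replicate 3 held 138 CPM of it, and the mean of the other 7 libraries was 15.04 CPM. Slpi, an inhibitor of neutrophil elastase, had means of 2.71, 27.0 ± 42.9 and 25.0 CPM, and without 8-week replicate 3, at 132 CPM, its 8-week mean was 11.99 CPM.

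Receptors of elastin and microfibrils were called in part. Of 12 tested, 6 were called higher at 8 weeks, 8 higher and 1 lower at 16 weeks, and 4 higher and 1 lower from 8 to 16 weeks. At 8 weeks the 6 receptor calls were all higher, where 30.8% of all genes tested were called higher. Calls in either direction covered 51.3% of all genes tested, near the share of the receptors called. Lgals3, galectin-3, which binds elastin and its peptides, rose from 6.41 to 327 and 379 CPM, with log2 changes of 5.67 and 5.89. Itgb5, an integrin chain that binds RGD sites such as those of fibrillin and Fbln5, had a log2 change of 1.45 at 8 weeks. Its level there varied widely, at 254 ± 217 CPM (SD, n = 8). Itgb6 and Itgb8, integrin chains that activate latent TGF-beta, rose from 8 to 16 weeks by log2 changes of 2.94 and 2.24. The receptor gene called lower was Itgb3, with log2 changes of -0.56 at 16 weeks against chow and -0.74 from 8 to 16 weeks.

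**Figure D5:**
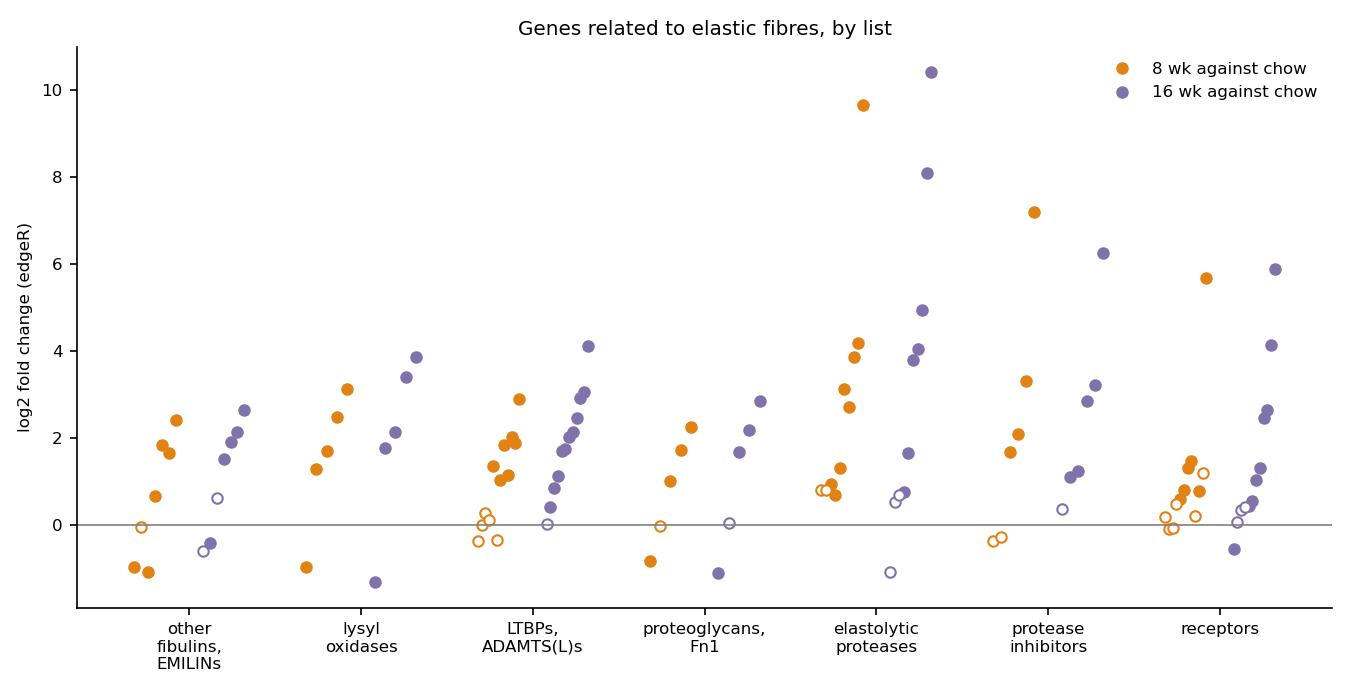
Log2 fold change by edgeR of each tested gene of 7 related lists, at 8 weeks (orange) and 16 weeks (purple) against chow; filled points were called at an adjusted p under 0.05. Most points lie above 0, with Mmp12 highest at 9.65 and 10.39 and Loxl4 lowest among the lysyl oxidases.

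Markers of cells that could make these transcripts also differed between the groups. The 9 activated stellate cell and myofibroblast genes summed to 118 to 204 CPM on chow, 562 to 1552 CPM at 8 weeks and 1199 to 2047 CPM at 16 weeks, and all had counts. The 7 portal fibroblast genes summed to 19.7 to 53.9, 36.1 to 149 and 152.5 to 242.7 CPM, and the 6 mesothelium genes to 5.47 to 13.3, 6.96 to 16.1 and 16.6 to 28.6 CPM. The 7 vascular smooth muscle genes summed to 19.8 to 69.2, 28.0 to 740 and 54.6 to 111.8 CPM, with the highest value in 8-week replicate 3. The 8 stellate cell identity genes had medians of 349.9, 376 and 389 CPM, and the 4 endothelial genes of 99.6, 117 and 114 CPM. The part of each cell type in the results was not tested. In whole liver, more cells of a type and more RNA per cell cannot be told apart.

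Exons of 4 of the genes overlap those of a gene on the opposite strand. Fbn1 shares 2442 bases with Gm9913, Eln 267 with Gm30003, Fbn2 129 with Gm26507 and Mfap4 89 with Mapk7. The libraries were stranded, but whether the counting used strand is not given in the sources used here, so reads from these stretches cannot be assigned to one gene of each pair with certainty.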

How the data were processed

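RNA sequencing of total RNA from 21 mouse livers was used, in 3 groups of 5, 8 and 8 libraries. The libraries were stranded, per the labels' protocols. The authors deposited unnormalized read counts for 52636 Ensembl gene IDs. Reads were mapped to GRCm38, per the submitters' processing notes. Which aligner, counter and annotation were used is not given in the sources used here. Symbols, coordinates and exon lengths came from GENCODE M21, which named 52489 of the IDs (99.72%), and promoters from RefSeq. The per-sample tables and the table of the series held identical counts in 21 of 21 samples.

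In R 4.3.3 with edgeR 4.0.16, filterByExpr by group kept 17104 genes, libraries were scaled with TMM factors, and all 21 libraries entered 1 quasi-likelihood fit (glmQLFit, glmQLFTest). The call threshold was 0.05 after Benjamini-Hochberg adjustment. Ratios and correlations used exact two-sided permutation tests over libraries in Python 3.11.15. The fit was tested on simulated counts with 200 genes changed by known folds. With no molecular identifiers, floors for counts of 0 cover counting error only. Replicates are numbered in listed order. No batch, sex or pairing is given.

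All 10 members are named. From each related list the 2 called genes with the largest change are examples. Hmcn1, Mmrn2, Loxl4, Fn1 and Itgb3 were named after their values were seen. The members, lists and tests were chosen with earlier results of these data known. Alternatives were DESeq2 1.42.0 size factors and Wald test, total counts alone, the 20 most abundant genes left out, no filter, a filter at a mean of 1 CPM, only the 2 groups compared, each library left out in turn, 8-week replicates 3, 4 and 5 left out, 8 libraries with transcripts of other tissues left out, for ratios 1 count added and medians, and for correlations a prior count of 2. Added after the values were seen was a fit without 8-week replicates 3 and 6 and 16-week replicates 1, 4 and 7, and for 8-week replicate 3 its levels by total counts and the means without it.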

Additional observations from a re-analysis of the deposited data

Results flagged for a closer look

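Of 30 sets of values (10 genes in 3 groups), 5 held a library whose gap to the nearest of the others passed Dixon's 95% limit, and in each it was the highest value, from 8-week replicate 3. Mfap4 stood at 30.3 CPM there, Mfap5 at 2.43 CPM, Fbln1 at 24.4 CPM, Fbln2 at 12.8 CPM and Emilin1 at 199.5 CPM. Chance would mark about 1 set in 20 if the values were normally distributed. The 5 sets share 1 library and its scaling, so they are not separate cases to set against that rate. These values depend on the library's TMM factor of 0.495. By total counts alone they were 15.02, 1.205, 12.1, 6.34 and 98.9 CPM, and 0 of these 5 passed the limit, though replicate 6 then did for Fbln2. On that scale Mfap4, Mfap5 and Fbln1 were still the highest of the group, while Fbln2 and Emilin1 lay below replicate 6, at 10.6 and 117 CPM. The same library had 0 counts of Fbn2 and the lowest Fbln5 of its group, at 7.23 CPM, while its Eln (23.9 CPM) lay among the others. It also held the highest sums of skeletal muscle (2362 CPM), squamous epithelium (1994 CPM), fat tissue (416.8 CPM) and vascular smooth muscle transcripts (740 CPM); their part in these values was not tested.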

How the results depend on the processing

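No paired analysis was possible because the labels give the groups no shared replicate numbers. The counts of members called stayed at 9 of 10 higher in both comparisons with chow under each single library left out, and ran from 5 to 9 from 8 to 16 weeks; 0 were called lower. These 9 members, and Eln, Fbn2, Fbln2 and Fbln5 from 8 to 16 weeks, kept direction and call in every alternative that tested them. Scaling by total counts alone moved the median log2 change of all genes by 0.12, 0.53 and 0.38 in the order 8 weeks, 16 weeks and 16 against 8 weeks, and the share of higher calls among all calls from 60.1, 56.6 and 49% to 78.3, 89.5 and 94.8%. Members are given relative to TMM scaling, and from 8 to 16 weeks Mfap4 (1.27) and Emilin1 (0.82) were called under total counts.

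The number of all genes called moved by over 1.5 times in these cases. At 8 weeks it was 3356 higher with only the 2 groups compared (main 5269) and 1669 lower by total counts (3503). At 16 weeks it was 8448 higher (5026) and 986 lower (3847) by total counts, and 5850 lower with only the 2 groups. From 8 to 16 weeks it was 4449 higher by total counts and 2941 in the fit added later (1814), and for lower 245 by total counts, 1082 without a filter, 782 with only the 2 groups and 923 without 8-week replicates 3, 4 and 5 (1889). With single libraries left out, counts ran from 4518 to 5502 higher and 3045 to 4386 lower at 8 weeks, 4688 to 4931 and 3411 to 3745 at 16 weeks, and 1344 to 2527 and 904 to 2835 between them (904 to 1220 lower without 16-week replicate 2, 5, 6 or 8, and 2835 without 8-week replicate 6).

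Mfap5 changed sign: its log2 change was -0.21 and -0.60 at 8 weeks and -0.23 and -0.67 at 16 weeks without the 8 libraries and in the added fit. From 8 to 16 weeks it was -0.044 with DESeq2 size factors, -0.0017 without the 20 most abundant genes, -0.17 by the DESeq2 Wald test, -0.016 without the 8 libraries and -0.073 in the added fit. With single libraries left out it ran from -0.064 to 1.21 at 8 weeks and from -0.43 to 0.82 between the diet groups. Log2 Fbn2/Fbn1 at 8 weeks was 2.47 without 8-week replicates 3, 4 and 5 and 2.47 without the 8 libraries, both now passing, and 1.37 to 2.24 with single libraries left out. Log2 Fbln2/Fbln1 at 8 weeks turned to 0.013 and 0.076 in the same cases, and from 8 to 16 weeks passed at -0.93 and -1.21 there and at -0.61 as a difference of medians, with -0.81 to -0.45 for single libraries left out. Eln/Fbn1 from 8 to 16 weeks ran from 0.39 to 0.58 with single libraries left out and passed in 5 of 16 such cases. Without the 8 libraries, Mfap5/Mfap2 at 8 weeks (-3.04) and Eln/Col1a1 at 16 weeks (-0.59) no longer passed, with fewer libraries. By total counts 3 pairs passed by rho at 8 weeks.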
